A study of Arabidopsis thaliana with 8 samples.

Results

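The xyloglucan endotransglucosylase/hydrolases (XTHs) of Arabidopsis thaliana are a family of 33 genes, XTH1 to XTH33. They were taken from the table of read counts by their locus identifiers, and all 33 were found among its 40246 features. Of these members, 28 had enough reads to be tested and 5 did not. By the family's usual naming, XTH1 to XTH11 form sequence group I (11 genes), XTH12 to XTH26 group II (15 genes) and XTH27 to XTH33 group III (7 genes).

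Xyloglucan is the main hemicellulose of the primary wall in Arabidopsis and lies between and against the cellulose microfibrils. An XTH cuts a xyloglucan chain and either joins the cut end to another chain, which is the endotransglucosylase reaction, or passes it to water, which is the hydrolase reaction. Most members are transglucosylases, while the group III enzymes XTH31 and XTH32 are known mainly as hydrolases. In roots the family is known from elongating cells and from root hairs, and several members are known to respond to brassinosteroid, to touch or to other hormones.

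The libraries were made from polyadenylated root RNA of seedlings in the Col-0 background, harvested on day 7. The 4 groups were bzr1-D at low Pi, bzr1-D at adequate Pi, wild type at low Pi and wild type at adequate Pi, with 2 libraries each, described as biological replicates and numbered Exp 1 and Exp 2. All seedlings were moved on day 6 for 24 h to fresh medium, so the groups at adequate phosphate (Pi, 0.625 mM) were transferred as well as those at low Pi (1 µM). bzr1-D is a dominant allele of BZR1, a transcription factor that acts at the end of the brassinosteroid pathway, and the mutation makes the protein more stable. It was present from germination and in every tissue, and these libraries come from whole roots, so in all results below fewer cells of a type and less RNA per cell cannot be told apart.

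Libraries held 15947895 to 22150569 counts, so a gene at 1 CPM, a count scaled to the library's total, rested on at least 15.9 counts. CPM values below are adjusted by TMM, a factor that evens out differences in RNA composition, and in each pair the Exp 1 library is given before the Exp 2 library.

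The genotype labels were checked on 5 brassinosteroid synthesis genes that BZR1 is known to repress. CPD, DWF4 and BR6OX2 were lower in all 4 bzr1-D libraries than in all 4 wild-type libraries, by the quasi-likelihood test of edgeR, with p-values adjusted by Benjamini-Hochberg (log2 fold change -0.78 ± 0.12 SE, adjusted p = 0.0123, for CPD, -0.96 ± 0.21, adjusted p = 0.0439, for DWF4 and -1.02 ± 0.09, adjusted p = 8.58e-04, for BR6OX2). Of the other 2, BR6OX1 was not called (-0.38 ± 0.13, adjusted p = 0.186, same test). It had 4.92 to 5.90 CPM in bzr1-D and 4.92 to 9.07 CPM in wild type. ROT3 overlapped between the genotypes (-0.01 ± 0.08, adjusted p = 0.977, same test), with 47.6 to 60.0 CPM in bzr1-D and 51.8 to 60.6 CPM in wild type. With the replicate block, a term for the Exp number, edgeR called 4 of the 5 lower, where 8.48% of all features were called lower. CPD had 23.5 and 27.2 CPM in bzr1-D at low Pi and 23.0 and 25.5 CPM in bzr1-D at adequate Pi, against 39.2 and 48.0 CPM in wild type at low Pi and 36.0 and 47.5 CPM in wild type at adequate Pi. DWF4 had 16.9 and 9.38 CPM in bzr1-D at low Pi and 17.3 and 11.2 CPM in bzr1-D at adequate Pi, against 26.3 and 23.1 CPM in wild type at low Pi and 30.1 and 27.3 CPM in wild type at adequate Pi.

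All 7 root markers were found in all libraries. Their sum was 679 and 725 CPM in bzr1-D at low Pi and 622 and 613 CPM in bzr1-D at adequate Pi. In wild type it was 806 and 820.0 CPM at low Pi and 697 and 727 CPM at adequate Pi, so the sum was lower in bzr1-D within each Pi supply. The single markers were mixed. For the averaged difference 2 had a fitted value above 0 and 5 below, with a median log2 fold change of -0.03, against 0.01 over all features. At each Pi supply 3 were above 0 and 4 below. Averaged over both Pi supplies, edgeR called 1 of the 7 lower without the block (5.37% of all features were called). With the block it called 1 higher and 1 lower (15.3% of all features). The sum of 10 photosynthesis genes that mark shoot tissue was 83.9 to 94.4 CPM in bzr1-D and 55.2 to 84.8 CPM in wild type, with 1 to 3 of the 10 at 0 in each library. One of these genes, LHCB1.1, had 3.22 and 0.0565 CPM in bzr1-D at low Pi and 3.28 and 0.249 CPM in bzr1-D at adequate Pi, against 0.165 and 5.57 CPM in wild type at low Pi and 0.557 and 0.0899 CPM in wild type at adequate Pi. Genotypes and Pi supplies overlapped in it. PSAD1, a subunit of photosystem I, had 8.82 to 11.1 CPM in bzr1-D and 4.18 to 7.27 CPM in wild type, so that all bzr1-D libraries were above all wild-type libraries. Averaged over both Pi supplies, all 9 tested shoot markers had a fitted value above 0 for bzr1-D over wild type, with a median log2 fold change of 0.74, against 0.01 over all features. At low Pi 5 of 9 were above 0 (median 0.29) and at adequate Pi 9 of 9 (median 1.16). None was called by edgeR for the averaged difference (5.37% of all features were called), while 4 had an unadjusted p under 0.05 (15.7% of all features) and DESeq2 called PSAD1 (6.87% of all features). With the replicate block, a term for the Exp number, edgeR called 1, also PSAD1 (15.3% of all features). The part of shoot tissue in the genotype differences of the family was not tested.

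The Exp number moved many XTH genes. The median absolute difference between Exp 2 and Exp 1 was 0.44 on the log2 scale over the 28 tested members and 0.18 over all 20262 features tested, and it exceeded 1 in 3 of the 28 members (XTH7, XTH20 and XTH32) and in 2.23% of all features. The sources used here do not say what libraries of 1 Exp number have in common. Such a shift counts as spread in a fit without it. Each result is therefore given without the Exp number and again, where the call changes, from the fit that holds it as a replicate block. The block holds only a shift shared by both genotypes. Deviations from group means correlated more between the Pi supplies of 1 genotype (0.604 in bzr1-D, 0.643 in wild type) than across genotypes (0.290 to 0.489). In the averaged genotype tests these libraries count as independent, so SE and p-values there can be too small.

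The level of the family was spread unevenly over its members. XTH30, XTH31, XTH24, XTH18 and XTH4 had the highest mean levels, at 118, 107, 105, 104 and 98.4 CPM per kilobase of exon over the 8 libraries, and together held 53.2% of the family's summed level per kilobase. XTH15, XTH14, XTH8, XTH19 and XTH17 followed at 61.8, 57.8, 56.5, 53.8 and 40.8 CPM per kilobase, which brought the share to 80.3%. The library ranges of neighbours within each of these sets overlapped, so their order does not exceed the spread between libraries. Exon lengths are RefSeq's, and for some members, such as XTH18, XTH19 and XTH22, they exceed the whole span of the gene in the deposited table. Levels per kilobase of such members can be too low, which also limits the order and the shares.

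The leading members come from all 3 sequence groups. XTH30 (XTR4, group III) had 98.2 and 164 CPM per kilobase in bzr1-D at low Pi and 108 and 136 in bzr1-D at adequate Pi, against 93.7 and 117 for wild type at low Pi and 94.6 and 130 for wild type at adequate Pi. Its Exp 2 library was the higher one in every group, and the ranges of the genotypes overlapped. XTH18, a transglucosylase known from roots, had 108 and 111 CPM per kilobase in bzr1-D at low Pi and 110.4 and 117 in bzr1-D at adequate Pi. It had 69.5 and 117 for wild type at low Pi and 82.5 and 115 for wild type at adequate Pi. Its low values were the Exp 1 libraries of wild type.

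A middle set lay between 10.07 and 35.5 CPM per kilobase. It held XTH27 (35.5), which is known from the tracheary elements of veins, then XTH16 (24.6), XTH21 (23.4), XTH20 (21.3), XTH28 (15.7), XTH22 (12.7), XTH23 (12.3), XTH5 (12.01), XTH12 (11.5) and XTH9 (10.07). XTH13 and XTH26 followed at 6.10 and 4.89 CPM per kilobase. The lowest of the tested members were XTH10, XTH33, XTH32, XTH2, XTH11 and XTH7, at 2.12, 1.45, 1.23, 1.103, 0.677 and 0.293 CPM per kilobase. XTH7 reached at most 17 counts in a library and XTH11 at most 26, so only large differences could be seen for them.

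The members too low to measure were XTH1 with 0 counts in every library, XTH3 with at most 1 count, XTH25 with at most 2, XTH6 with at most 4 and XTH29 with at most 10. A count of 0 in a library allows up to 3 counts, or 0.135 to 0.188 CPM depending on the library, for counting error only. XTH3 is known from flowers. XTH25 stands in a tandem cluster on chromosome 5 with XTH12, XTH13 and XTH22, of which the other 3 were all measured.

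**Figure D1:**
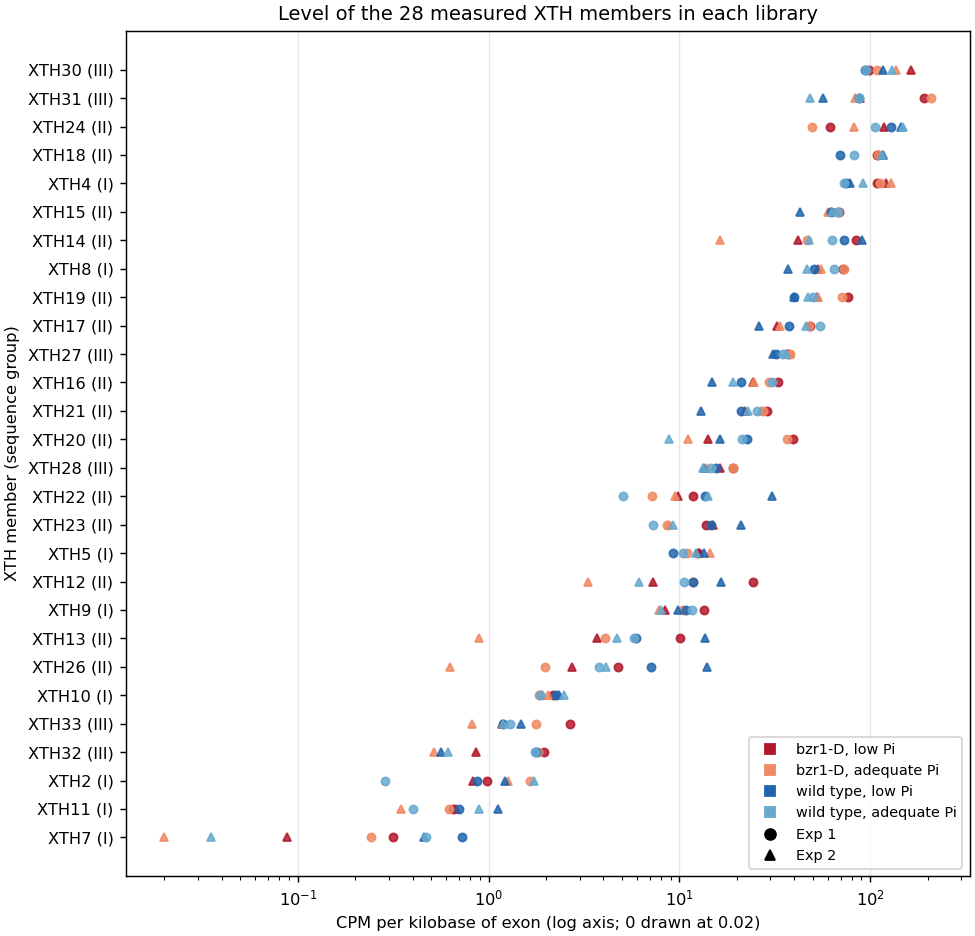
Level of each of the 28 tested XTH members in each of the 8 libraries, in TMM-scaled CPM per kilobase of exon on a log axis, with group as colour and Exp number as shape. XTH30, XTH31, XTH24, XTH18 and XTH4 lie near 100 CPM per kilobase and XTH7 lies below 1, and in XTH20 and XTH32 the circles and triangles stand apart within each group.

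The first question was how the family differs between bzr1-D and wild type. Averaged over both Pi supplies, XTH4 was higher in bzr1-D, and it was the only one of the 28 tested members called by edgeR's quasi-likelihood test, where 5.37% of all features were called. An unadjusted p under 0.05 was reached by 5 members and 15.7% of all features. With the replicate block 8 members were called, where 15.3% of all features were called. XTH4, XTH8, XTH16, XTH19, XTH21, XTH28 and XTH31 were higher in bzr1-D (6.77% of all features were called higher), and XTH24 was lower (8.48% called lower). The median log2 fold change of the 28 members was 0.15, against 0.01 over all features, with 18 members above 0 and 10 below.

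In the summed level the family was somewhat higher in bzr1-D in Exp 1. The members together had 1576 and 1382 CPM in bzr1-D at low Pi and 1501 and 1268 CPM in bzr1-D at adequate Pi, against 1209.8 and 1286 CPM in wild type at low Pi and 1233 and 1268 CPM in wild type at adequate Pi. The Exp 2 library of bzr1-D at adequate Pi was at the level of wild type, so the genotypes overlapped. Abundant members weigh most in this sum. In Exp 1, XTH31 had 268 CPM at low and 291 CPM at adequate Pi in bzr1-D, against 122 CPM at each supply in wild type. In the same libraries XTH24 was lower in bzr1-D, with 74.6 CPM at low and 59.8 CPM at adequate Pi, against 155 and 128 CPM.

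XTH4 (EXGT-A1, AT2G06850, chr2:2763526-2765720 in the deposited table, group I) is one of the long-known endotransglucosylases of growing tissue. It had 176 and 195 CPM in bzr1-D at low Pi and 181 and 208 CPM in bzr1-D at adequate Pi, against 121 and 126 CPM in wild type at low Pi and 117 and 148 CPM in wild type at adequate Pi. Every bzr1-D library was above every wild-type library. The log2 fold change was 0.57 ± 0.11 (SE, 4 libraries a genotype), with an adjusted p of 0.0232 by edgeR's quasi-likelihood test and of 7.04e-05 with the replicate block. Without the block the call was lost in 6 of the 8 fits that left out 1 library, with log2 fold changes of 0.49 to 0.65, and with the block it was kept in 8 of 8. The difference was 0.58 at low Pi and 0.56 at adequate Pi, with adjusted p of 0.00167 and 0.00229 in edgeR's fit with the block and of 0.133 and 0.169 without it.

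XTH31 (XTR8, AT3G44990, chr3:16446975-16448764, group III) encodes a hydrolase that is also known for its part in aluminium binding by the root wall. It had 268 and 123 CPM in bzr1-D at low Pi and 291 and 116 CPM in bzr1-D at adequate Pi, against 122 and 79.2 CPM in wild type at low Pi and 122 and 67.5 CPM in wild type at adequate Pi. Exp 1 libraries were the higher ones in every group, and within each Exp number both bzr1-D libraries were above both wild-type libraries, although the genotypes overlapped across Exp numbers. With the block the log2 fold change was 0.95 ± 0.11 (adjusted p = 3.09e-04, edgeR's quasi-likelihood test), the highest of the 28 members. Without the block it was 1.03 ± 0.38 (adjusted p = 0.235). It was 1.19 within Exp 1 and 0.71 within Exp 2.

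XTH19 (AT4G30290, chr4:14828712-14830016, group II) is known from the whole root, including its dividing and elongating parts. It had 102 and 70.0 CPM in bzr1-D at low Pi and 95.4 and 70.7 CPM in bzr1-D at adequate Pi, against 53.4 and 53.5 CPM in wild type at low Pi and 67.1 and 63.1 CPM in wild type at adequate Pi. All 4 bzr1-D libraries were above all 4 wild-type libraries. The log2 fold change was 0.52 ± 0.15 without the block (adjusted p = 0.107, edgeR's quasi-likelihood test) and 0.50 ± 0.09 with it (adjusted p = 0.00363). Inside Exp 1 alone it was 0.72, and inside Exp 2 alone 0.28. Libraries of bzr1-D and wild type did not overlap in 3 members, XTH4, XTH19 and XTH27, all higher in bzr1-D, as in 5.69% of all features, and in no member were all bzr1-D libraries the lower ones, as in 7.47% of all features.

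XTH24 (MERI5, AT4G30270, chr4:14819192-14820592, group II), annotated as similar to BRU1, a brassinosteroid-responsive gene of soybean, went the other way. It had 74.6 and 143 CPM in bzr1-D at low Pi and 59.8 and 99.0 CPM in bzr1-D at adequate Pi, against 155 and 176 CPM in wild type at low Pi and 128 and 181 CPM in wild type at adequate Pi. Both genotypes were higher in Exp 2, and within each Pi supply both bzr1-D libraries were below both wild-type libraries. The log2 fold change was -0.83 ± 0.11 with the block (adjusted p = 0.00169, edgeR's quasi-likelihood test) and -0.78 ± 0.25 without it (adjusted p = 0.160). XTH24 stands in a tandem cluster on chromosome 4 with XTH18 and XTH19, in which XTH19 was thus higher and XTH24 lower in bzr1-D.

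XTH8 and XTH16 had smaller differences. XTH8 (group I) had 87.6 and 64.6 CPM in bzr1-D at low Pi and 89.1 and 66.9 CPM in bzr1-D at adequate Pi, against 61.5 and 45.3 CPM in wild type at low Pi and 78.7 and 56.6 CPM in wild type at adequate Pi. XTH16 (group II) had 39.9 and 29.6 CPM in bzr1-D at low Pi and 36.0 and 29.9 CPM in bzr1-D at adequate Pi, against 25.6 and 18.1 CPM in wild type at low Pi and 37.4 and 23.1 CPM in wild type at adequate Pi. For XTH8 both bzr1-D libraries were above both wild-type libraries within each Exp number. For XTH16 this was so within Exp 2, while the Exp 1 library of wild type at adequate Pi lay between those of bzr1-D. With the block, the log2 fold changes were 0.36 ± 0.06 (adjusted p = 8.00e-04) for XTH8 and 0.41 ± 0.08 (adjusted p = 0.00306) for XTH16 by edgeR's quasi-likelihood test, and without it the adjusted p of each was 0.412.

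XTH21 and XTH28 were close to the threshold. XTH21 (group II) had 34.3 and 26.5 CPM in bzr1-D at low Pi and 32.8 and 32.2 CPM in bzr1-D at adequate Pi, against 25.0 and 15.6 CPM in wild type at low Pi and 30.5 and 27.3 CPM in wild type at adequate Pi. XTH28 (EXGT-A2, group III) had 28.4 and 24.4 CPM in bzr1-D at low Pi and 28.4 and 20.8 CPM in bzr1-D at adequate Pi, against 23.3 and 20.2 CPM in wild type at low Pi and 21.8 and 19.8 CPM in wild type at adequate Pi. The genotypes overlapped in both genes. In edgeR's fit with the block the adjusted p was 0.0229 for XTH21 (log2 fold change 0.38 ± 0.10) and 0.0380 for XTH28 (0.26 ± 0.07), and leaving out 1 library ended the call in 4 of 8 and in 6 of 8 such fits. DESeq2 with the block kept the call of XTH21 (adjusted p = 0.0294) and not that of XTH28 (adjusted p = 0.182). The calls of XTH4, XTH8, XTH16, XTH19, XTH24 and XTH31 were kept in 8 of 8.

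**Figure D2:**
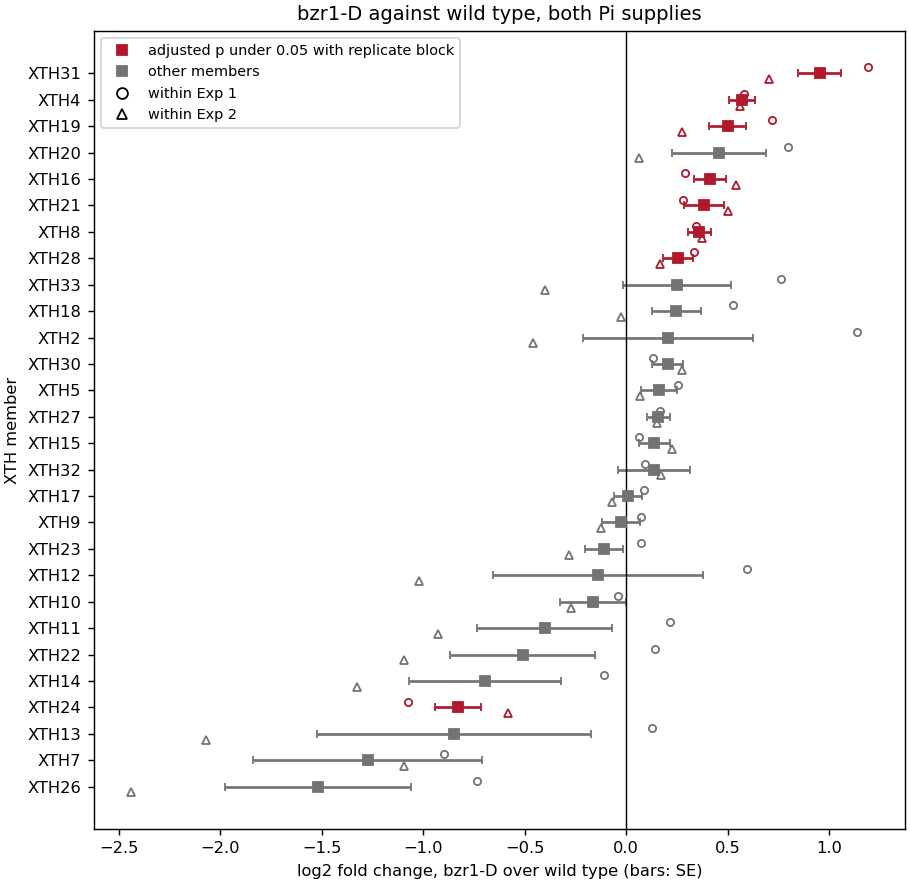
Log2 fold change of bzr1-D over wild type, averaged over both Pi supplies, for the 28 tested XTH members, from edgeR's fit with the replicate block. Squares are the fitted values with their SE, open circles and triangles the values within Exp 1 and Exp 2, and red marks the 8 members with an adjusted p under 0.05. XTH31 is highest at 0.95, XTH24 is the red member below 0, and the wide bars of XTH13 and XTH26 come with values that differ between the Exp numbers.

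At the lower end XTH26, a group II gene known from root hair growth, had the lowest fitted value. It had 5.62 and 3.22 CPM in bzr1-D at low Pi and 2.34 and 0.746 CPM in bzr1-D at adequate Pi, against 8.37 and 16.5 CPM in wild type at low Pi and 4.46 and 4.90 CPM in wild type at adequate Pi. Within each Pi supply both bzr1-D libraries were below both wild-type libraries. Its log2 fold change was -1.53 ± 0.37 with an adjusted p of 0.0639 by edgeR's quasi-likelihood test, and the adjusted p was 0.125 in edgeR's fit with the block. DESeq2 called it without the block (adjusted p = 8.24e-04) and with it (adjusted p = 0.0238). Without the block DESeq2 called 4 members in this comparison and 6.87% of all features. The value was -0.73 within Exp 1 and -2.44 within Exp 2.

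By sequence group, all 6 tested members of group III had a positive fitted difference between bzr1-D and wild type, as had 10587 of all 20262 features. Their median log2 fold change was 0.24, with a highest value of 1.03 for XTH31. The values of XTH32 (0.14 ± 0.56) and XTH33 (0.30 ± 0.34) were smaller than their SE. Group I had 4 members above 0 and 4 below, with a median of 0.07, and group II had 8 above and 6 below, with a median of 0.02. With the block, edgeR called 2 of 6 tested members of group III (XTH28 and XTH31) and 2 of 8 of group I (XTH4 and XTH8). In group II it called 4 of 14 (XTH16, XTH19 and XTH21 higher, XTH24 lower). Of all features 15.3% were called, and whether the groups differ was not tested.

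The genotype difference was also fitted at each Pi supply. At low Pi, no member was called by edgeR without the block (2.12% of all features were called), 5 had an unadjusted p under 0.05 (10.8% of all features), DESeq2 called 1, XTH4 (3.30% of all features), and limma-voom called 0. With the block 7 were called, with XTH4, XTH8, XTH16, XTH19, XTH21 and XTH31 higher in bzr1-D (3.86% of all features were called higher) and XTH24 lower (5.14% called lower). At adequate Pi, no member was called without the block by edgeR, DESeq2 or limma-voom (1.99% of all features were called by edgeR and 3.11% by DESeq2), and 3 had an unadjusted p under 0.05 (9.71% of all features). With the block 3 were called, with XTH4 and XTH31 higher (2.81% of all features) and XTH24 lower (4.59% of all features). The fitted values at low Pi were 0.51 for XTH8, 0.67 for XTH16 and 0.59 for XTH21, and at adequate Pi they were 0.21, 0.15 and 0.17. Whether these differed is the test of the Pi responses between genotypes below. The libraries did not overlap in 14 of 28 members at low Pi (34.8% of all features) and in 8 of 28 at adequate Pi (32.9% of all features).

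**Figure D3:**
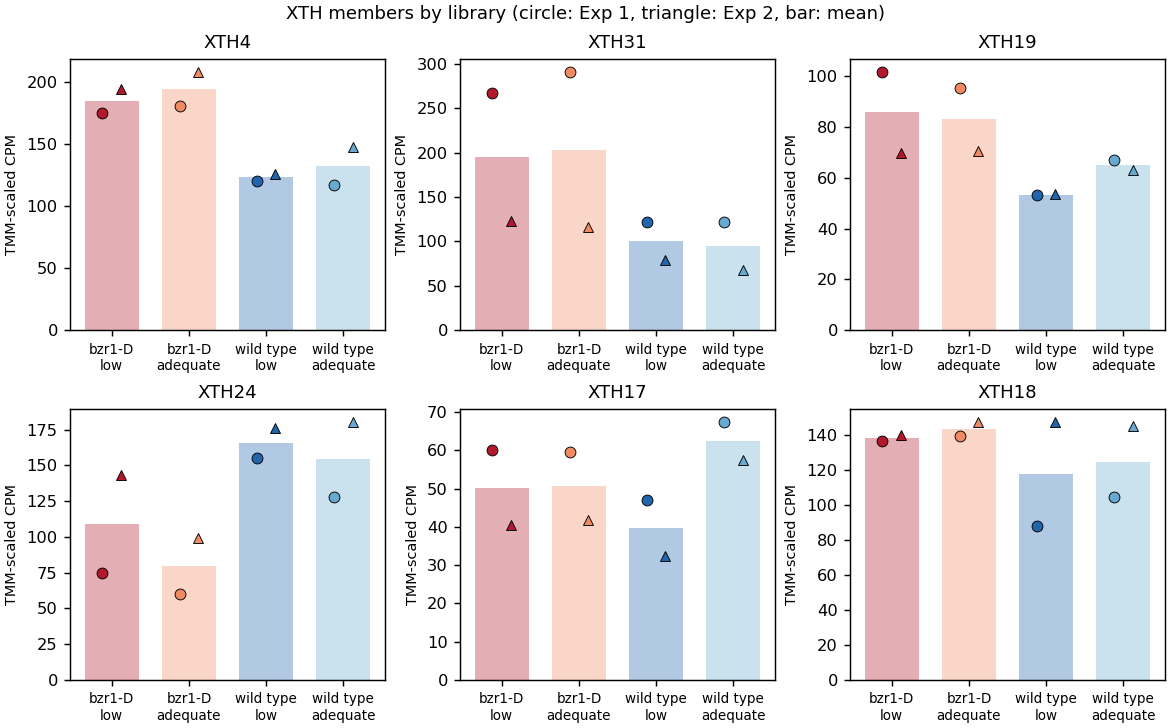
TMM-scaled CPM of 6 XTH members in each library, with bzr1-D at low Pi, bzr1-D at adequate Pi, wild type at low Pi and wild type at adequate Pi as columns, the mean of the 2 libraries as a bar and Exp number as shape. All bzr1-D points of XTH4 and XTH19 lie above all wild-type points, XTH31 shows the same order within each Exp number, XTH24 is lower in bzr1-D within each Pi supply, and the wild-type points of XTH17 are lower at low Pi.

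Neighbouring genes on the chromosomes were counted because calls between the genotypes were unevenly placed along the genome. The most calls with the block in a 1 Mb bin were 88 of 192 tested features, on chromosome 5. Bins with many calls were not limited to it, such as 72 of 238 on chromosome 1 and 63 of 257 on chromosome 3. Within 500 kb of XTH4, XTH16, XTH19, XTH21, XTH24 and XTH31, between 6.04% and 8.26% of the tested features were called, which is below the 15.3% of all features. For XTH4 this rested on 27 tested features, of which 2 were called. Near XTH8 and XTH28 the share was 25.3% and 24.2%. Near XTH12, XTH13 and XTH22, which were not called between the genotypes, it was 23.5%, 23.5% and 23.4%. The highest shares near members were 40.9% for XTH17, 33.2% for XTH20 and 30.1% for XTH30, none of which was called between the genotypes. Whether the position of any of these members has a part in its genotype values was not tested.

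Promoters of 4 members that were higher in bzr1-D are shown because BZR1 is known to bind the brassinosteroid response element CGTGCG or CGTGTG and the G-box CACGTG. The sequences are the 250 bases before the annotated start in RefSeq's TAIR10.1, 5′ to 3′ on the gene's strand, with motif matches in capitals. XTH4 is from chr2:2763199-2763448 on the plus strand, XTH31 from chr3:16448845-16449094 on the minus strand, XTH19 from chr4:14830225-14830474 on the minus strand and XTH8 from chr1:3880392-3880641 on the minus strand.
XTH4: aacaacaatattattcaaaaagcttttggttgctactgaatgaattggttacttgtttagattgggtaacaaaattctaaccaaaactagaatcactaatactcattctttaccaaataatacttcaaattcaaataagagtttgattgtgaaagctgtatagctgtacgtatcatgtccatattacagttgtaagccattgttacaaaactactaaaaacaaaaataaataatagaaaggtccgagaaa
XTH31: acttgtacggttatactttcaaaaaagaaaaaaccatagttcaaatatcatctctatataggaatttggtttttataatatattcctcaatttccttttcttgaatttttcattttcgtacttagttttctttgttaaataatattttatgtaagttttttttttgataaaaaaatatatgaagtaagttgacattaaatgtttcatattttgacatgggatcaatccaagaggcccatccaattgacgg
XTH19: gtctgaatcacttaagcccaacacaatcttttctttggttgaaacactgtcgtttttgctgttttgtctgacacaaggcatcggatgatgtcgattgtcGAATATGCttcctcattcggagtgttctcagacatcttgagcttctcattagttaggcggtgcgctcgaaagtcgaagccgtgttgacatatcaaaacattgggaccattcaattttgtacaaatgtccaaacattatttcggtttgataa
XTH8: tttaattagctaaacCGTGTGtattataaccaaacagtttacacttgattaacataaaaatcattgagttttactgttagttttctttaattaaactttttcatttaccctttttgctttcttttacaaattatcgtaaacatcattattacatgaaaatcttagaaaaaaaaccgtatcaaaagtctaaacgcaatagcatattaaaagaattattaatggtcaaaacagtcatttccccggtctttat

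Both strands were searched from 250 bases before to 50 bases after the start for these motifs and for P1BS, GNATATNC, which PHR1, the main regulator of the Pi starvation response, is known to bind. The brassinosteroid response element was present in 4 of 33 XTH promoters, those of XTH2, XTH8, XTH23 and XTH25, and in 8.19% of 27443 promoters. The G-box was found in 0 of 33 XTH promoters and in 7.68% of all. P1BS was found in 2 of 33, those of XTH2 and XTH19, and in 6.25% of all. In the sequences above the match in XTH8 is CGTGTG, which starts 235 bases before the start of the gene, and the match in XTH19 is a P1BS 151 bases before it. No match lay in the windows of XTH4 or XTH31, which says only that these letters are not there.

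The second question was how the family responds to 24 h at low Pi. Averaged over both genotypes, XTH23 was higher at low Pi and was the only one of the 28 members called with the replicate block, where 0.148% of all features were called by edgeR's quasi-likelihood test. Without the block no member and no feature was called, while 3 members and 2.18% of all features had an unadjusted p under 0.05. DESeq2 called 2 members, XTH23 and XTH26, and 0.281% of all features, and limma-voom called none. The median log2 fold change of the 28 members was 0.08, against 0.00 over all features.

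XTH23 (XTR6, AT4G25810, chr4:13128643-13129884, group II) is the closest relative of the touch gene XTH22 in coding sequence, with 80.9% identity. It had 18.8 and 20.6 CPM in bzr1-D at low Pi, against 11.8 and 12.1 CPM in bzr1-D at adequate Pi. In wild type it had 20.0 and 29.0 CPM at low Pi, against 10.03 and 12.7 CPM at adequate Pi. All 4 libraries at low Pi were above all 4 at adequate Pi, which was so for no other member and for 0.888% of all features. The log2 fold change was 0.91 ± 0.09 with the block (adjusted p = 0.0019, edgeR's quasi-likelihood test) and 0.92 ± 0.14 without it (adjusted p = 0.373), and the call with the block was kept in 8 of 8 fits that left out 1 library.

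Within genotypes, the XTH23 difference was 1.099 ± 0.13 in wild type (adjusted p = 0.00998 with the block) and 0.72 ± 0.13 in bzr1-D (adjusted p = 0.149 with the block), both by edgeR's quasi-likelihood test. Without the block the values were 1.11 ± 0.20 and 0.73 ± 0.20, each with an adjusted p of 1. The difference between the genotypes was -0.38 ± 0.19 with the block and was not called. In wild type the call with the block was lost without the Exp 2 library at low Pi and without either library at adequate Pi.

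One member was called lower at low Pi, in wild type and in edgeR's fit with the block. XTH17 (AT1G65310, chr1:24257216-24258473, group II), a transglucosylase known from roots, had 47.0 and 32.4 CPM at low Pi, against 67.5 and 57.5 CPM at adequate Pi. In bzr1-D it had 60.1 and 40.4 CPM at low Pi, against 59.4 and 41.8 CPM at adequate Pi. The wild-type groups did not overlap and the bzr1-D groups did. With the block the wild-type log2 fold change was -0.68 ± 0.10 (adjusted p = 0.0318, edgeR's quasi-likelihood test), and without it -0.66 ± 0.27 (adjusted p = 1). The call with the block was lost in 5 of the 8 fits that left out 1 library, among them each library of wild type except the Exp 1 library at low Pi.

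In wild type, XTH23 and XTH17 were the 2 members called with the block (0.0839% of all features were called), and DESeq2 without the block called 1, XTH23 (0.138% of all features). Without the block edgeR called no member and no feature, and 4 members had an unadjusted p under 0.05 (1.63% of all features), namely XTH17, XTH22, XTH23 and XTH26. In bzr1-D no member was called by edgeR with or without the block or by DESeq2, where 0.0197% of all features were called with the block and 0.0987% by DESeq2, and 2 members had an unadjusted p under 0.05 without it (1.25% of all features), XTH23 and XTH26. Libraries at low and adequate Pi did not overlap in 10 of 28 members in wild type (22.6% of all features) and in 6 of 28 in bzr1-D (19.6% of all features).

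**Figure D4:**
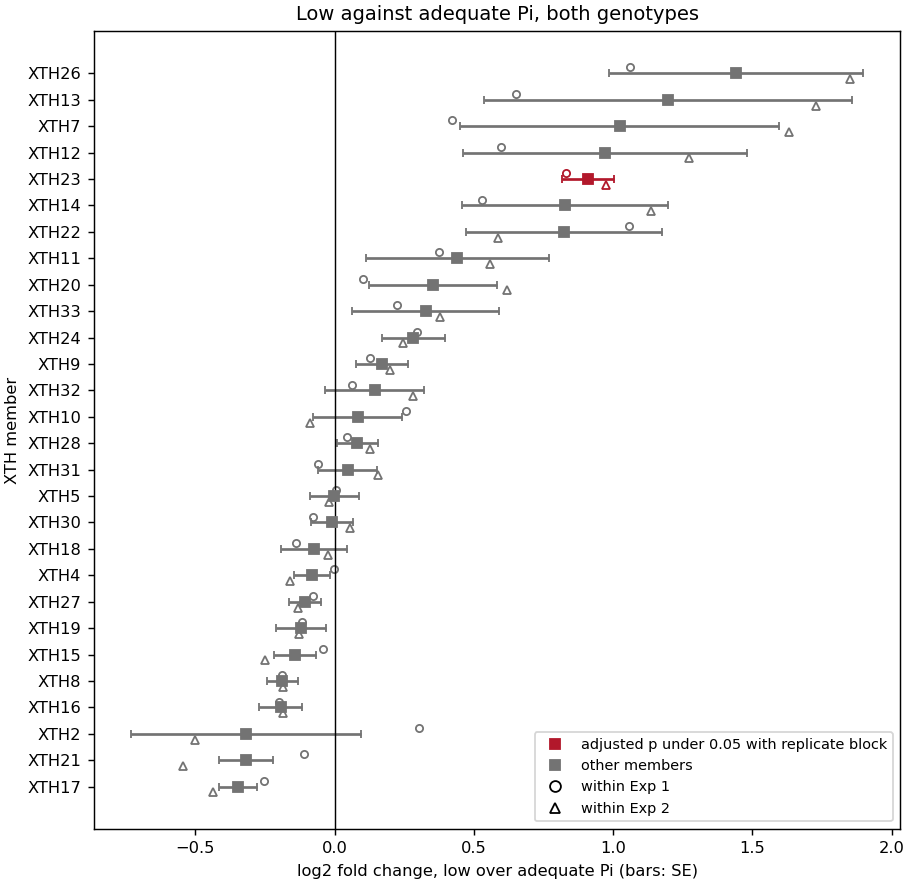
Log2 fold change of low over adequate Pi, averaged over both genotypes, for the 28 tested XTH members, from edgeR's fit with the replicate block. Squares are the fitted values with their SE, open circles and triangles the values within Exp 1 and Exp 2, and red marks XTH23 at 0.91. XTH26, XTH13, XTH7 and XTH12 have fitted values near or above that of XTH23 with wider bars.

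The test of whether Pi responses differed between bzr1-D and wild type called no member and no feature in edgeR's fits with or without the block. Without the block 0 of 28 members and 0.785% of all features had an unadjusted p under 0.05, and with it 4 of 28 members and 3.19% of all features did. These 4 were XTH17 (0.66 ± 0.14), XTH16 (0.52 ± 0.15), XTH15 (0.37 ± 0.15) and XTH8 (0.30 ± 0.11), all with a positive value, and the lowest adjusted p among them was 0.996. The sign means that the log2 change at low Pi was more positive or less negative in bzr1-D than in wild type. With the block the values at low Pi in bzr1-D were -0.01 for XTH17, 0.07 for XTH16, 0.04 for XTH15 and -0.04 for XTH8. DESeq2 called no member, with or without the block.

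XTH17 and XTH18 are the closest pair of the family, with 92.2% identity over the coding sequence, and lie on different chromosomes. Their promoters were compared because XTH17 and not XTH18 was called for Pi. Only the 250 bases before the start were searched, and the longest identical run in them was 73 bases. It reached the last base before the annotated start in both genes, where the search stopped, so it may go on past it. The next longest run among the 528 pairs of members was 14 bases. Shown are the last 120 bases before the start, XTH17 from chr1:24256934-24257053 on the plus strand and XTH18 from chr4:14827212-14827331 on the minus strand in TAIR10.1, with the shared run in capitals.
XTH17: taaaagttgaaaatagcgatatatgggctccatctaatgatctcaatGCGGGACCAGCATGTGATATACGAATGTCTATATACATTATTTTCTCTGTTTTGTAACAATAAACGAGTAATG
XTH18: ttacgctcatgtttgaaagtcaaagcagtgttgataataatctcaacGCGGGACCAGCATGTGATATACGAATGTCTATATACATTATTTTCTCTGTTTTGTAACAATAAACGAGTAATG

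XTH18 had 136 and 140 CPM in bzr1-D at low Pi, against 139 and 147 CPM in bzr1-D at adequate Pi. In wild type it had 87.8 and 148 CPM at low Pi, against 104 and 145 CPM at adequate Pi. The groups overlapped in both genotypes, with log2 fold changes of -0.05 ± 0.17 in bzr1-D and -0.10 ± 0.17 in wild type with the block. The difference between the 2 genes was not tested. Reads of 50 bases can tell the copies apart almost everywhere, since 2 of 1195 exon windows of that length in XTH17, 19 of 1214 in XTH18 and 21 of 1286 in XTH19 occur more than once in the nuclear genome. In XTH21 it was 82 of 1147, and the sources used here do not say how the authors' counting treated such reads.

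Another set of group II members is given beside markers of root hairs. XTH14 and XTH26 are known from root hairs, and XTH13 and XTH12 are close relatives of XTH14 with 89.7% coding identity between them. Summed, XTH12, XTH13, XTH14 and XTH26 had 142 and 64.4 CPM in bzr1-D at low Pi, against 74.8 and 24.7 CPM in bzr1-D at adequate Pi. In wild type they had 113 and 157 CPM at low Pi, against 96.3 and 72.7 CPM at adequate Pi. Low Pi was the higher condition in both Exp numbers of both genotypes, and the Exp 1 libraries of bzr1-D were more than those of Exp 2 in both conditions. XTH14 was the largest part of this sum in every library, at 19.1 to 106 CPM.

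The sum of 8 root hair markers, which include EXPA7 and RSL4, was 503 and 267 CPM in bzr1-D at low Pi, against 315 and 159 CPM in bzr1-D at adequate Pi. In wild type it was 455 and 445 CPM at low Pi, against 421 and 320.0 CPM at adequate Pi. It was likewise higher at low Pi in each Exp number, and no marker was at 0 in a library. For low against adequate Pi edgeR called none of the 8, with or without the block. In the averaged comparison no feature was called without it and 0.148% with it. In bzr1-D all 8 were above 0 (median log2 fold change 0.81, against 0.003 over all features). In wild type 7 of 8 were (median 0.27, against -0.003). EXPA7, an expansin of root hairs, had 32.8 and 19.4 CPM in bzr1-D at low Pi and 19.3 and 9.38 CPM in bzr1-D at adequate Pi, against 36.8 and 39.2 CPM in wild type at low Pi and 31.3 and 26.8 CPM in wild type at adequate Pi. Between genotypes RSL4, a regulator of root hair growth, was lower in bzr1-D (log2 fold change -0.78 ± 0.16, adjusted p = 0.0326, edgeR's quasi-likelihood test). Averaged over both Pi supplies it was the only one of the 8 markers called by edgeR, with or without the block, where 5.37% of all features were called without it and 15.3% with it. All 8 had a fitted value below 0, with a median log2 fold change of -0.52, against 0.01 over all features. At low Pi 6 of 8 were below 0 (median -0.29) and at adequate Pi 8 of 8 (median -0.75). The part of root hairs in the values of these XTH genes was not tested.

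None of these members was called for Pi by edgeR. XTH26, whose 8 values are given above, had log2 fold changes for low Pi of 1.49 ± 0.55 in bzr1-D and 1.41 ± 0.48 in wild type, with unadjusted p of 0.0297 and 0.0211 and adjusted p of 1 by edgeR's quasi-likelihood test. Within each genotype both libraries at low Pi were above both at adequate Pi. XTH13 had 11.1 and 4.13 CPM in bzr1-D at low Pi, against 4.52 and 0.994 CPM in bzr1-D at adequate Pi, and in wild type 6.55 and 15.2 CPM at low Pi, against 6.43 and 5.26 CPM at adequate Pi. Its Exp 1 libraries of wild type were level with each other, and its averaged log2 fold change was 1.17 ± 0.50 (adjusted p = 1).

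XTH13 and XTH14 also had the second most alike stretch of promoter. Of 40 bases aligned without gaps 34 matched, against a median of 24 for the best stretch of the 528 pairs. Shown in TAIR10.1 are chr5:23304153-23304192 on the minus strand for XTH13, which starts 97 bases before the gene, and chr4:13130221-13130260 on the plus strand for XTH14, which starts 70 bases before it, with matching bases in capitals.
XTH13: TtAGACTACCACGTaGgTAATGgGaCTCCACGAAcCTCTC
XTH14: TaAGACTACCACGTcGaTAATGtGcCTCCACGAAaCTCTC

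**Figure D5:**
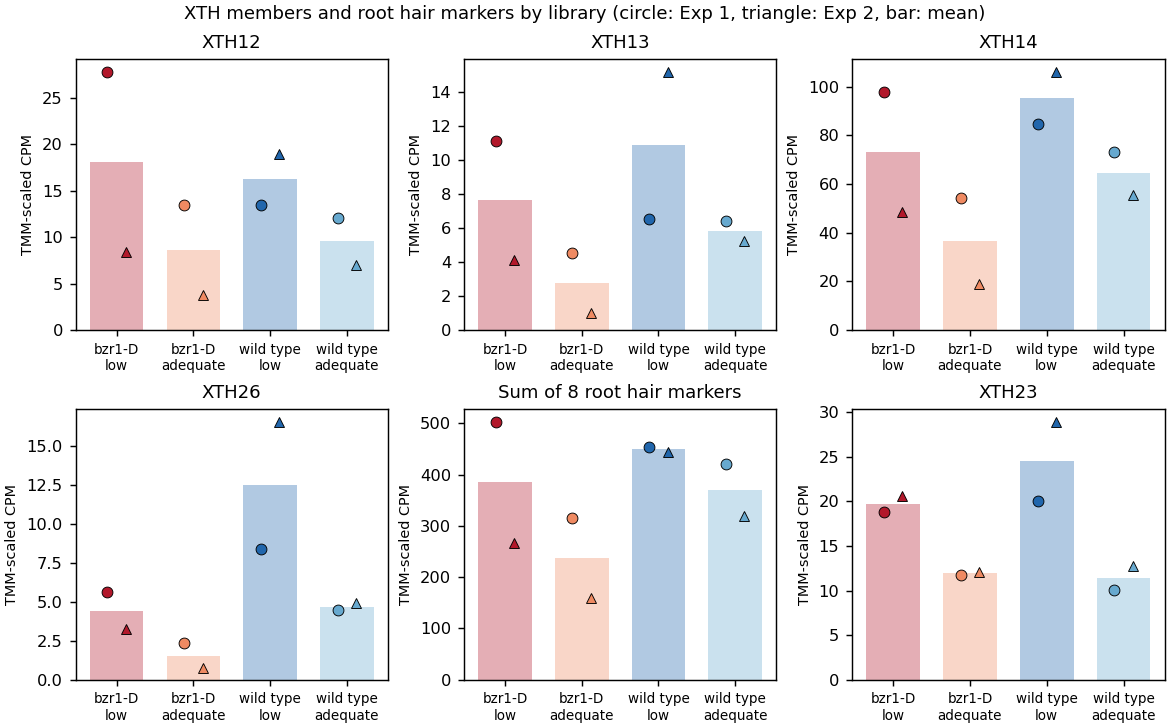
TMM-scaled CPM of XTH12, XTH13, XTH14, XTH26 and XTH23 and of the sum of 8 root hair markers in each library, with the same columns, bars and shapes by Exp number as for the genotype members. In XTH12, XTH13 and XTH14 the bzr1-D points of Exp 1 lie above those of Exp 2, as in the marker sum, while the XTH23 points at low Pi lie above those at adequate Pi in both genotypes.

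XTH22, the touch-induced gene TCH4, had 18.6 and 15.7 CPM in bzr1-D at low Pi, against 11.4 and 15.04 CPM in bzr1-D at adequate Pi. In wild type it had 21.6 and 48.5 CPM at low Pi, against 8.05 and 22.3 CPM at adequate Pi. The Exp 2 library of wild type at low Pi stood far above the rest, and the wild-type groups overlapped. XTH22 had a fitted log2 fold change of 1.201 ± 0.51 in wild type (unadjusted p = 0.0484, adjusted p = 1, edgeR's quasi-likelihood test) and 0.38 ± 0.52 in bzr1-D.

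The same library led the sum of 6 touch markers, which was 157 and 154 CPM in bzr1-D at low Pi, against 103 and 119.9 CPM in bzr1-D at adequate Pi. In wild type it was 181 and 475 CPM at low Pi, against 79.6 and 162 CPM at adequate Pi. TCH3, a touch-induced calmodulin-like gene, had 67.5 and 84.3 CPM in bzr1-D at low Pi, against 23.0 and 61.7 CPM in bzr1-D at adequate Pi. In wild type TCH3 had 106 and 367 CPM at low Pi, against 11.7 and 79.7 CPM at adequate Pi. None of the 6 touch markers was called for Pi by edgeR, with or without the block, and none was at 0. Without the block edgeR called no feature at all for Pi. Between genotypes, averaged over both Pi supplies, 5 of the 6 were below 0 in bzr1-D (median log2 fold change -0.66, against 0.01 over all features). One was called lower without the block (5.37% of all features were called) and 1 with it (15.3%). The part of these markers in the values of XTH22 and XTH23 was not tested. For XTH23 the log2 difference of low from adequate Pi, averaged over genotypes, was 0.83 within Exp 1 and 0.97 within Exp 2.

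The promoter of XTH23 is shown because it is the member called for Pi in both averaged and wild-type comparisons, and because it is one of the 4 with a brassinosteroid response element, CGTGTG, here 94 bases before the start and in capitals. It is chr4:13128144-13128393 on the plus strand of TAIR10.1, the 250 bases before the annotated start. No P1BS match lay in it.
XTH23: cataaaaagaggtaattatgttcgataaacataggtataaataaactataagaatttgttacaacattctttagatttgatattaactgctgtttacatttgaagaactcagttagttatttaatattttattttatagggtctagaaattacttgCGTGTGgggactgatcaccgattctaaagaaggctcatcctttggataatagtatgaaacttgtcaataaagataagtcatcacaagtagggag

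The rest of the family gave no call in any comparison by edgeR or DESeq2. XTH30, the member with the highest level, had a log2 fold change of 0.20 ± 0.08 between bzr1-D and wild type with the block (adjusted p = 0.100), and of -0.01 ± 0.08 for low Pi. XTH27 was higher in all 4 bzr1-D libraries, at 56.7 to 59.0 CPM, than in all 4 wild-type libraries, at 48.1 to 56.0 CPM, with a log2 fold change of 0.16 ± 0.06 and an adjusted p of 0.0928 with the block. XTH20, known from the stele of the mature root, had 12.4 to 55.7 CPM over the libraries and a fitted difference of Exp 2 from Exp 1 of -1.24 on the log2 scale. XTH15 overlaps a gene on the opposite strand in RefSeq's bounds, and the sources used here do not say whether counting used strand.

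Genes that make or trim xyloglucan were set beside the family, from a list of 18 genes for backbone synthases, side chain transferases and trimming enzymes, all of which were tested. None was called in any of the 7 comparisons by edgeR without the block. With the block 1 was called, AXY4, a xyloglucan O-acetyltransferase, which was higher in bzr1-D. That is 1 of 18, where 15.3% of all features were called with the block and 5.37% without it for the genotype difference averaged over both Pi supplies. AXY4 had 33.8 and 29.5 CPM in bzr1-D at low Pi and 33.2 and 31.6 CPM in bzr1-D at adequate Pi, against 27.1 and 23.3 CPM in wild type at low Pi and 26.9 and 24.0 CPM in wild type at adequate Pi. All bzr1-D libraries were above all wild-type libraries, with a log2 fold change of 0.34 ± 0.06 and an adjusted p of 0.00334 in edgeR's fit with the block. The 18 genes had a median log2 fold change of -0.01 between bzr1-D and wild type and of 0.06 for low Pi, both averaged, against 0.01 and 0.00 over all features.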

How the data were processed

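Polyadenylated root RNA of 8 libraries was sequenced as single reads of 50 bases, per the labels' protocols. The authors deposited 1 table of raw read counts per annotated feature. TopHat2 2.0.11, HTSeq 0.6.1, DESeq2 1.2.8 and the TAIR10 build are named, per the submitters' processing notes, without roles or settings. Groups came from the titles, since strain and tissue values stand under each other's tag in the labels.

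The deposited counts went into the robust quasi-likelihood test of edgeR 4.0.16 (R 4.3.3) with TMM scaling, 1 coefficient per group and a minimum count of 10, which left 20262 features and 4 residual degrees of freedom. P-values were adjusted by Benjamini-Hochberg over all features tested, with a threshold of 0.05. SE is the log2 fold change divided by the square root of F. The comparisons were low against adequate Pi in each genotype and averaged, bzr1-D against wild type at each Pi supply and averaged, and the Pi response of bzr1-D minus that of wild type. The family and all gene lists were chosen with earlier results of these data known. Values per library are given for members called with or without the replicate block, for those with an unadjusted p under 0.05 and for the 5 with the highest level per kilobase. Features were matched to RefSeq's TAIR10.1 by locus identifier (32940 matched, 99.8% of them with a start within 2 kb). Exon lengths, coding identities and promoters come from that annotation.

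What an Exp number stands for is not explained in the labels. Deviations from the group means correlated between same-numbered libraries in all 6 pairs of groups (0.290 to 0.643), so the numbers were taken to pair the libraries, and the fit with them as a block is given where it changes a call. It lowered the common biological coefficient of variation to 0.0858, against 0.169 without it. Chi-square per degree of freedom between the libraries of a group was 16.9 to 36.3, so none was a copy of another. Alternatives were RLE and upper-quartile scaling, no filter, DESeq2 1.42.0, limma-voom of limma 3.58.1, the block and leaving out each library. The edgeR fit was tested on simulated data.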

Additional observations from a re-analysis of the deposited data

How the results depend on the processing

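Of 21 values for named members, recomputed 315 times, none changed direction. These 21 were chosen because edgeR called them with or without the replicate block (pairing by Exp number). Without the block edgeR called only XTH4 for genotype averaged, and the other 20 were not called. All 21 kept these sides of the threshold under RLE scaling, upper-quartile scaling, limma-voom and no filter on low counts. Those 20 thus stayed without a call there. That they passed with the block in edgeR follows from how they were chosen, and DESeq2 with the block called 19 of them. With DESeq2 in place of edgeR, members called numbered 1 in wild type for Pi, 1 for genotype at low Pi, 4 for genotype averaged and 2 for Pi averaged. The block gave 2, 7, 8 and 1 with edgeR, 3 for genotype at adequate Pi, and the same members with DESeq2, except that XTH26 replaced XTH28 for genotype averaged. Over all features, edgeR without the block, edgeR with it, DESeq2 and DESeq2 with the block called 0, 4, 20 and 51 for Pi in bzr1-D, 0, 17, 28 and 71 for Pi in wild type, and 0, 30, 57 and 114 for Pi averaged (1 with no filter). In the same order they called 429, 1823, 669 and 1239 for genotype at low Pi, 404, 1500, 631 and 1036 at adequate Pi, and 1089, 3090, 1391 and 2216 averaged, while for the difference of the Pi responses only DESeq2 with the block called any (1). Without the block XTH4 kept a log2 fold change of 0.49 to 0.65 for genotype averaged when 1 library was left out. Leaving out 1 library also moved the number of calls without the block. Over all features it gave 0 to 10 for Pi in wild type, 0 to 19 for Pi averaged, 182 to 362 and 173 to 385 for genotype at low and adequate Pi, 609 to 900 averaged, and 0 for Pi in bzr1-D and for the difference. With the block, leaving out 1 library gave 0 to 6 members for Pi in wild type, 1 to 6 for Pi averaged, 5 to 8 and 1 to 5 for genotype at low and adequate Pi, and 6 to 10 averaged. With 2 libraries a group, a library left without a partner is assumed to vary like the other groups, and a member without a call may still differ. The promoter searches, the counts near members, the Exp differences, the 50-base windows and the blocked fits without 1 library were chosen after seeing the data.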
